A study of Mus musculus with 27 samples.

Results

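The 10 genes described here are canonical Wnt target and feedback genes: Axin2, Lef1, Sp5, Tcf7, Tcf7l1, Tcf7l2, Nkd1, Rnf43, Znrf3 and Notum. They were chosen by symbol, with no rule on their levels, and all 10 were found among the 55487 genes of the count table from embryonic day 14 (E14). All 10 also passed the filter on low counts (over 10 counts in 3 or more of the 27 libraries), as did 16330 genes in all. The filter ran over all libraries, so it did not depend on the groups compared.

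RNA was sequenced from laser-captured pieces of the mouse optic stalk at E14, from 4 control and 5 Smarcc1-DCT-cKO embryos. Each embryo gave a piece of dorsal stalk, a piece of ventral stalk and a piece rich in axons of retinal ganglion cells, which gave 6 groups of 4 or 5 libraries. The labels name the embryos only as Control or Mutant. By the study's methods, mutants carried loxP-flanked Smarcc1 (also called Baf155) alleles, the Dct-Cre transgene and the Z/EG reporter on a C57Bl6/J background, and controls were littermates without Dct-Cre. Smarcc1 encodes a core subunit of the BAF chromatin remodelling complex. Dct-Cre is active in the lineages of the retinal pigmented epithelium (RPE) and the optic stalk, so other cells in a captured piece, such as mesenchyme, vessels and incoming axons, keep an intact gene. Batch A held 1 control and 3 mutant embryos and batch B held 3 control and 2 mutant embryos.

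Library totals were 10.9 to 34.0 M counts, and 9225 to 16810 genes had a count above 0. Levels are given as CPM (a gene's counts per M counts of its library). A count of 0 allows a level of up to 3 counts, which was 0.0883 to 0.275 CPM depending on the library. The reads carry no molecular identifiers, so such floors cover counting error only. Smarcc1 was at 75.9 to 289 CPM in control and 2.26 to 107 CPM in mutant dorsal stalk, where the groups overlapped. It did not overlap between genotypes in ventral stalk (75.7 to 198 against 14.7 to 64.4 CPM) or in the axon region (50.1 to 242 against 1.86 to 44.9 CPM). Of the markers of optic stalk and astrocyte progenitors, Pax2, Sox2, Sox9, Nes, Fabp7 and Hes1 were detected in all 27 libraries, whereas Vax1 was at 0 in 9 and Vax2 in 15. In bulk tissue, fewer cells of a type and less RNA per cell cannot be told apart.

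In canonical Wnt signalling, a Wnt ligand binds Frizzled and LRP receptors, which stops a destruction complex from degrading beta-catenin. Beta-catenin then enters the nucleus and joins DNA-bound factors of the TCF/LEF family at target genes. Several targets act back on the pathway. Axin2 and Nkd1 dampen it in the cytoplasm, Rnf43 and Znrf3 remove receptors from the cell surface, and Notum inactivates the secreted ligand. In the eye primordium, Wnt signalling is known for its part in the formation of the pigmented epithelium and in the dorsal to ventral pattern of the optic cup. Target and feedback genes of the pathway are therefore widely used as readouts of its activity, although none of them answers to Wnt alone in all tissues. Of the members, Tcf7l1 and Tcf7l2 belong to the DNA-bound factors themselves, so their levels are not read here as a measure of that activity.

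TCF/LEF proteins bind a short core motif, here searched as CTTTGA and its reverse complement TCAAAG on both strands, with the longer CTTTGAT (reverse complement ATCAAAG) lying within matches of the core. RefSeq start sites on GRCm38.p6 gave 14 windows for 8 of the 10 members, each running from 250 bases before to 50 bases after a start. Notum and Znrf3 had no window in the table. The core was present in 2 of the 14 windows (14.3%) and in 16% of all 32851 windows, so its share among these genes lay near the background. The longer form was in 1 of the 14 (7.14%) against 3.73% of all windows. The windows with matches belong to Sp5 and to an internal start of Lef1, and are printed up to the start site with the core in capitals. The Axin2 window, which held no match, is shown for comparison because Axin2 is the target most often used as a reporter of the pathway.
Sp5, chr2:70474673-70474922, plus strand: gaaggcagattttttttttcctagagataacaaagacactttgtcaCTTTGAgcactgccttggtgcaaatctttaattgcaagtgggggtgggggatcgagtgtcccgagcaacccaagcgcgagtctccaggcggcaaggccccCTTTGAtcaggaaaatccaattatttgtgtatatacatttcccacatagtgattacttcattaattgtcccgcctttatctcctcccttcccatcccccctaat
Lef1 internal start, chr3:131156044-131156293, plus strand: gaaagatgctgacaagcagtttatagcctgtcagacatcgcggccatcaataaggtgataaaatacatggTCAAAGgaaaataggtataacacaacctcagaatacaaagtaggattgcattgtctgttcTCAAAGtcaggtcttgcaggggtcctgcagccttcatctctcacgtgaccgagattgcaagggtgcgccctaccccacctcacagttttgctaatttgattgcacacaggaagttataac
Axin2, chr11:108920099-108920348, plus strand: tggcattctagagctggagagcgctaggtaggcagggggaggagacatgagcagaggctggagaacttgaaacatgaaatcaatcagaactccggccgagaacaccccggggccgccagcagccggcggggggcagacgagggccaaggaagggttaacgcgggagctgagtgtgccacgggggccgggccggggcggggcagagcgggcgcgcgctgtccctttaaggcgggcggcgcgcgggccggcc
The matches of Sp5 began 204 and 104 bases before the start, and the nearer one extended to the longer form. Those of Lef1 began 180 and 120 bases before its internal start, both on the minus strand. A match describes the letters of the window and does not show that a factor was bound there.

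Levels of different genes were compared per kilobase of exon, since longer genes collect more reads. Over all 27 libraries the mean level per kilobase was highest for Tcf7l2 (16.3 ± 8.16 CPM per kb, SD), followed by Tcf7l1 (11.0 ± 6.31), Nkd1 (8.11 ± 6.18), Tcf7 (6.40 ± 7.39) and Znrf3 (6.36 ± 4.20). Sp5 (4.04 ± 5.29), Lef1 (2.80 ± 2.38), Axin2 (2.46 ± 2.62), Notum (1.11 ± 2.72) and Rnf43 (0.931 ± 3.43 CPM per kb) made up the lower end. For every pair of neighbours in this order, the mean difference within libraries was smaller than its SD. Tcf7l2 was above Tcf7l1 in 20 of 27 libraries, and Axin2 was above Notum in 21 of 27. Tcf7 was above Znrf3 in 11 of 27 and Lef1 above Axin2 in 12 of 27, so those neighbours had no settled order. Tcf7l2 ranked first in 5 of the 6 groups, and Tcf7l1 ranked first in mutant axons.

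**Figure D1:**
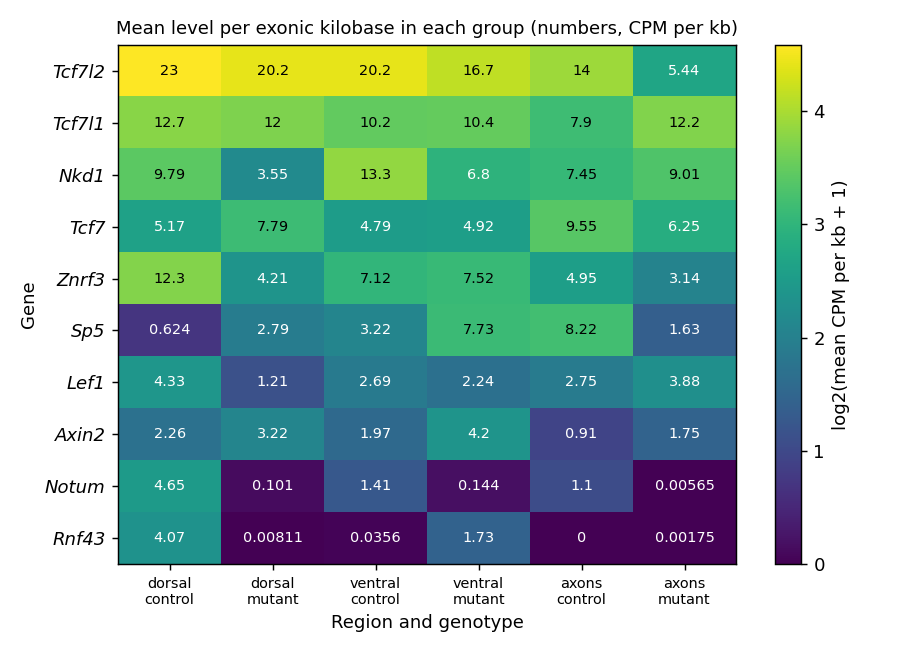
Mean level per kilobase of exon (CPM per kb, printed in each cell; colour, log2 of the mean plus 1) of the 10 genes in rows and the 6 groups of region and genotype in columns. Tcf7l2 is the highest in every group but mutant axons, where it ranks 4 at 5.44 CPM per kb and Tcf7l1 is the highest. Notum and Rnf43 are near 0 in most.

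Detection differed strongly among the members. Only Tcf7l2 and Tcf7l1 had more than 10 counts in all 27 libraries, against 26 for Lef1, 25 for Znrf3, 24 for Nkd1, 20 each for Axin2 and Tcf7, and 19 for Sp5. Notum passed 10 counts in 7 libraries and Rnf43 in 4. The number of members over 10 counts was on average 8.50 ± 0.577 (SD, n = 4) in control and 8.20 ± 0.447 (n = 5) in mutant ventral stalk. It was 7.50 ± 1.00 and 7.40 ± 0.894 in dorsal stalk, and 6.75 ± 2.06 and 6 ± 1.41 in axons. The number of genes detected moved with it, from 9225 to 11358 in mutant axons against 12396 to 15177 in mutant dorsal stalk, and its part in the members' detection was not tested.

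Each genotype comparison asks which genes differed after loss of Smarcc1 within a region. With batch as a term in edgeR's quasi-likelihood test, a call required both an absolute log2 fold change over 0.58 and an adjusted p under 0.05 (Benjamini-Hochberg, over all genes tested). No member was called in any region. The share of all genes called was 0.0124% in dorsal stalk, 0% in ventral stalk and 0% in axons, so the background itself was close to none. At an unadjusted p under 0.05, 1 of 10 members (Znrf3) stood in dorsal stalk, against 5.35% of all genes, and 0 members stood in ventral stalk (3.19% of genes) or axons (3.55%). No member separated the genotypes without overlap, which 2.92%, 1.23% and 1.28% of genes did in the dorsal, ventral and axon comparisons. The fitted log2 fold change was negative for 8 of 10 members in dorsal stalk, with a median of -0.96 against -0.04 for all genes. That median was -0.62 without mutant embryo 5, where 4 of 10 values were positive, and also -0.62 without control embryo 2. It was -0.57 within batch A and -1.20 within batch B, and limma voom gave 4 of 10 positive values. The fitted value was negative for 5 of 10 in ventral stalk (median 0.03 against -0.08). In axons, where Rnf43 had no fold, it was negative for 4 of 9, with a median of 0.02 with Notum at its bound, against -0.29 for all genes.

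**Figure D2:**
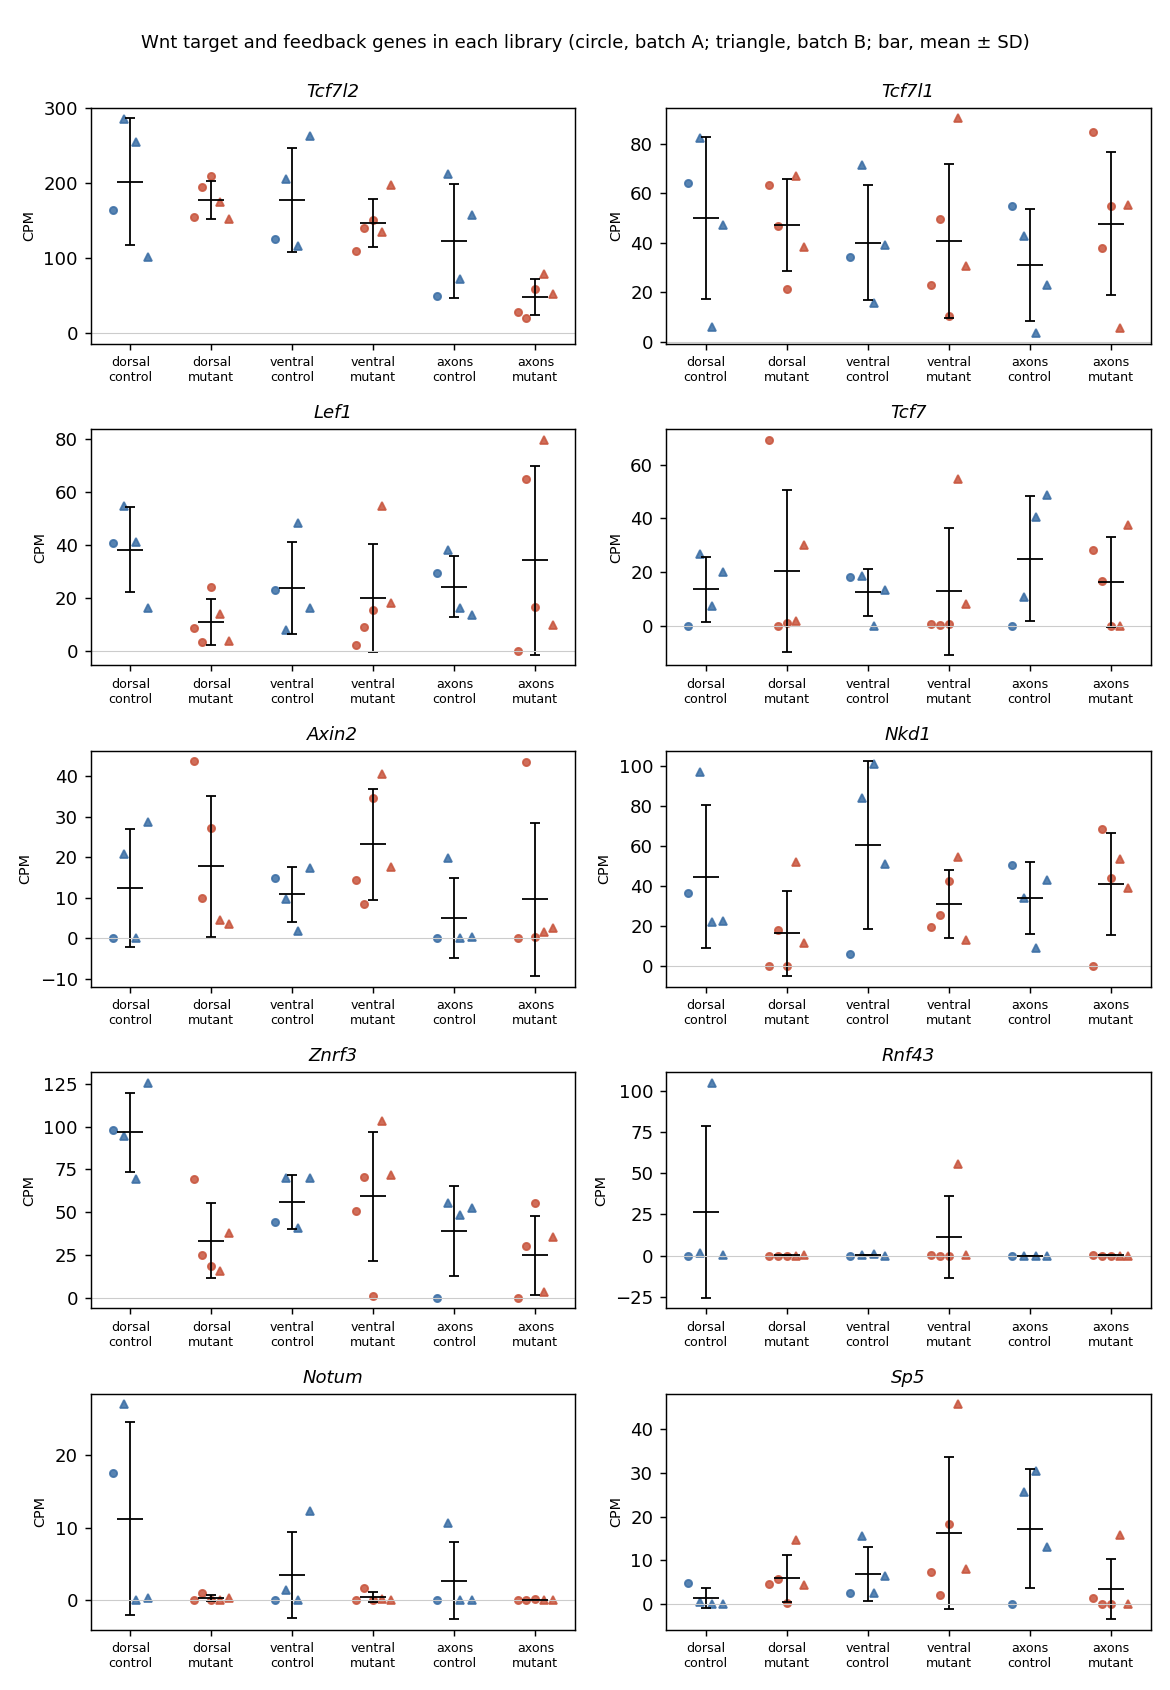
CPM of each member (vertical axis, a scale of its own in each panel) in every library of the 6 groups, controls in blue and mutants in red, with circles for batch A and triangles for batch B; bars give the mean and SD. The genotypes overlap in every region for every member, and single libraries set the means of Rnf43 and Notum.

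The TCF/LEF factors, which bind target genes with or without beta-catenin, included the most abundant members. Tcf7l2 (ENSMUSG00000024985, chr19:55741820-55933654 on mm10, plus strand) was at 164, 286, 255 and 101 CPM in control dorsal stalk and at 155, 195, 210, 175 and 151 CPM in mutant dorsal stalk. The mutant values lay inside the range of the controls. In ventral stalk it was at 126, 205, 116 and 262 CPM in controls and at 110, 141, 151, 135 and 198 CPM in mutants, again with overlap. In the axon region it was at 49.8, 212, 71.8 and 157 CPM in controls and at 28.0, 19.9, 59.2, 79.0 and 52.7 CPM in mutants, where the 2 lowest values were those of mutant embryos 1 and 2. The log2 fold change of mutant over control was -0.15 ± 0.39 (SE) in dorsal stalk, -0.11 ± 0.35 in ventral stalk and -0.89 ± 0.87 in axons, with adjusted p of 1, 0.999 and 0.911 by edgeR. These standard errors in the stalk were the smallest of all members.

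Tcf7l1, mostly a repressor of targets, lies at chr6:72626378-72789254 on the minus strand and ranged from 3.58 to 90.1 CPM over all libraries. Its group means were close to each other in dorsal stalk, at 49.9 ± 32.6 CPM in controls (SD, n = 4) and 47.3 ± 18.6 CPM in mutants (n = 5). In axons they were 31.0 ± 22.5 and 47.7 ± 28.9 CPM. None of the fitted differences between genotypes exceeded its SE. The lowest Tcf7l1 level in each control region was that of control embryo 3, at 5.96, 15.6 and 3.58 CPM.

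Lef1, a factor that is both an activator and a common target of the pathway, lies at chr3:131110471-131224356 on the plus strand. In dorsal stalk it was at 40.4, 54.5, 41.1 and 16.2 CPM in controls and at 8.44, 3.22, 24.0, 13.9 and 3.52 CPM in mutants. Only mutant embryo 3 was above the lowest control. The log2 fold change was -1.94 ± 1.39 (adjusted p = 0.993 by edgeR), and it was negative within each batch, at -1.77 in batch A and -2.09 in batch B. In ventral stalk and axons the mutant values ran from 2.08 to 54.4 CPM and from 0 to 79.5 CPM and covered the whole control range. Of the exonic bases of Lef1, 13.7% are shared with the opposite-strand gene Gm43352, and the strand setting of the counts is not given.

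Tcf7, which encodes TCF1, lies at chr11:52252371-52283014 on the minus strand and was at 0 in 4 of 27 libraries. Its highest levels were spread over groups, with 69.3 CPM in mutant dorsal stalk 1, 54.7 CPM in mutant ventral stalk 4 and 48.8 CPM in control axons 4. The SD of each mutant group was above its mean, as in dorsal stalk at 20.4 ± 30.0 CPM (n = 5).

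Because the TCF/LEF factors compete for the same sites, their makeup was also expressed as a share of their summed level per kilobase. Tcf7l2 made up 51.3% ± 17.7 (SD, n = 4) of it in control and 52.4% ± 17.4 (n = 5) in mutant dorsal stalk. In ventral stalk the shares were 53.4% ± 9.33 and 57.2% ± 20.9. In axons they were 38.0% ± 13.5 in controls and 22.2% ± 15.9 in mutants, and these overlapped, with 24.7% to 55.6% in controls and 8.84% to 46.2% in mutants. Tcf7l1 had the largest share in mutant axons, at 41.5% ± 22.2. Lef1 made up 9.58% ± 3.06 in control and 3.22% ± 3.15 in mutant dorsal stalk. These shares were not tested.

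**Figure D3:**
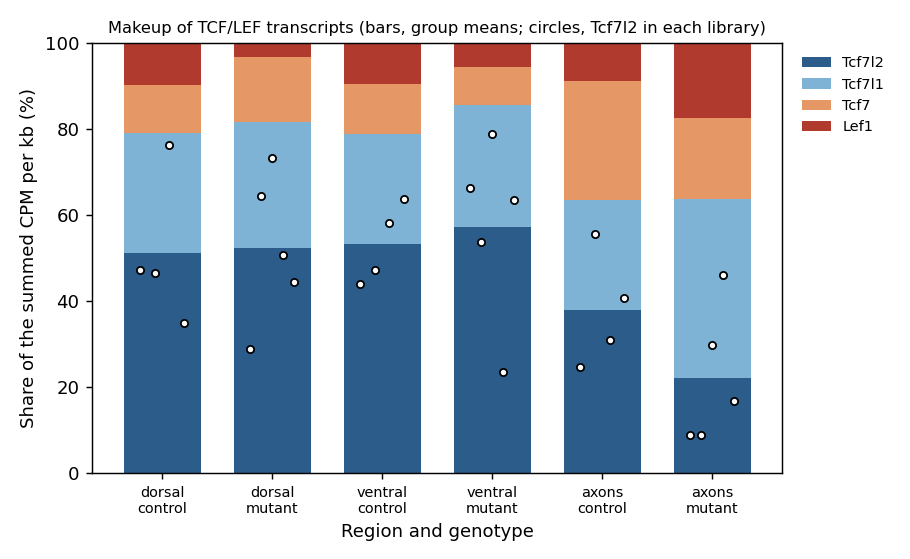
Share of the summed CPM per kb of Tcf7l2, Tcf7l1, Tcf7 and Lef1 (vertical axis, percent) in the 6 groups; bars are group means and open circles the Tcf7l2 share in each library. Tcf7l2 holds about the same mean share in dorsal and ventral stalk of both genotypes, and its circles in mutant axons run from 8.84% to 46.2%.

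Among the intracellular inhibitors, Axin2, a scaffold of the destruction complex, lies at chr11:108920349-108950783 on the plus strand. It was at 0.208, 20.8, 0.0590 and 28.6 CPM in control dorsal stalk and at 43.6, 9.84, 27.1, 4.55 and 3.59 CPM in mutant dorsal stalk. In ventral stalk it was at 14.8, 9.61, 1.77 and 17.3 CPM in controls and at 14.5, 8.42, 34.6, 40.5 and 17.7 CPM in mutants. The genotypes overlapped in both parts of the stalk. In axons most libraries were low, except control embryo 2 at 19.8 CPM and mutant embryo 2 at 43.4 CPM. The log2 fold changes were -0.54 ± 3.17 in dorsal stalk, 1.11 ± 1.37 in ventral stalk and -0.14 ± 4.53 in axons, all with SE above the value. In dorsal stalk the value was 6.93 in batch A and -1.98 in batch B, so it had no settled sign.

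Nkd1, an inhibitor of Dishevelled, lies at chr8:88521354-88594884 on the plus strand. It was at 22.1 to 97.3 CPM (median 29.5) in the 4 control dorsal libraries. In mutant dorsal stalk it was at 0, 17.6, 0, 52.1 and 11.3 CPM, and only mutant embryo 4 was above the lowest control. The log2 fold change was -1.38 ± 1.76 with an adjusted p of 1 by edgeR. In all 5 mutant embryos Nkd1 was lower in dorsal than in ventral stalk, and in controls in 2 of 4. The mutant log2 fold change of dorsal over ventral stalk was -0.90 ± 1.54 and was not called. How many of all genes had this order was not counted.

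The membrane ubiquitin ligases behaved differently from each other. Znrf3 (ENSMUSG00000041961, chr11:5276324-5444847, minus strand) removes Frizzled receptors and was the only member under an unadjusted p of 0.05 between genotypes. It was at 98.0, 94.4, 69.2 and 126 CPM in control dorsal stalk. In mutant dorsal stalk it was at 69.5, 24.9, 18.2, 15.7 and 37.6 CPM. Only mutant embryo 1 reached into the control range, by a narrow margin over control embryo 3. The log2 fold change was -1.65 ± 0.73 (adjusted p = 0.918 by edgeR), so Znrf3 did not pass the test. It was -1.41 within batch A and -1.83 within batch B, and between -1.99 and -1.36 when any 1 embryo was left out. The size was thus steadier than the p. Of 19 alternative fits, 7 had an unadjusted p under 0.05 and 0 called Znrf3. The lowest adjusted p was 0.0855, by DESeq2.

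No such difference stood in the other regions. In ventral stalk Znrf3 was at 44.5, 69.9, 40.6 and 69.7 CPM in controls and at 50.6, 70.5, 0.853, 103 and 71.4 CPM in mutants, with a log2 fold change of 0.26 ± 0.91. In axons the control values were 0, 55.5, 48.2 and 52.5 CPM and the mutant values 0, 30.3, 55.2, 3.09 and 35.3 CPM. The difference between the dorsal and the ventral effect was itself tested and was -1.53 ± 1.89 (adjusted p = 1 by edgeR).

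Marker lists of several cell types leaned to one side with genotype in dorsal stalk, where 5.35% of all genes had an unadjusted p under 0.05. All 12 mesenchyme markers had negative fitted values there, 7 of them at an unadjusted p under 0.05 and 0 called, and their summed level was 1269 to 10454 CPM in controls and 56.5 to 374 CPM in mutants. All 8 tested RPE and pigment markers had positive values, 1 of them at an unadjusted p under 0.05 and 0 called. Their sums overlapped, at 39.5 to 4912 CPM in controls and 3143 to 12280 CPM in mutants, while Rpe65 was at 0 in all libraries. The 8 endothelial markers all had negative values (median -1.71), 0 of them at an unadjusted p under 0.05. Their sums overlapped too, at 227 to 444 CPM in controls and 43.2 to 488 CPM in mutants. Of the 8 markers of optic stalk and astrocyte progenitors, 7 had negative values, 2 of them at an unadjusted p under 0.05 and 0 called, and their sums did not overlap, at 785 to 949.6 CPM in controls and 285 to 622 CPM in mutants. None of the mesenchyme markers was at 0 throughout either dorsal group. The part of these cell types in the Znrf3 and Lef1 values was not tested.

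Rnf43, the relative of Znrf3 with the same role, lies at chr11:87662722-87735539 on the plus strand and was at 0 in 17 of 27 libraries. Control dorsal stalk 3 held 1782 counts (105 CPM) and mutant ventral stalk 4 held 803 counts (56.0 CPM). No other library was above 1.43 CPM. The fitted log2 fold change in dorsal stalk was -6.64 ± 3.75 and became -1.82 without control embryo 3. In ventral stalk it was 5.99 ± 2.97 and became 2.02 without mutant embryo 4. Both groups were at or under the floor in axons, so no fold is given there.

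The secreted carboxylesterase Notum, which strips the lipid from Wnt ligands, lies at chr11:120653788-120661175 on the minus strand and was at 0 in 16 of 27 libraries. In control dorsal stalk it was at 17.5, 27, 0 and 0.269 CPM, and no mutant dorsal library was above 0.954 CPM. The log2 fold change was -5.84 ± 3.11 (adjusted p = 0.929 by edgeR), and -3.25 without control embryo 2. In axons the level came from control embryo 2 alone, at 10.6 CPM. With all mutant axon libraries at 3 counts or fewer, the control mean was at least 16.4-fold higher, with an adjusted p of 0.911 by edgeR. Of its exonic bases, 38.1% are shared with Notumos and Myadml2os on the opposite strand, and reads from these genes cannot be told apart without a strand setting.

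Sp5, a transcriptional repressor that is induced by Wnt in many tissues, lies at chr2:70474923-70477729 on the plus strand. It was at 4.87, 0.372, 0 and 0 CPM in control dorsal stalk and at 4.59, 5.604, 0.141, 14.6 and 4.32 CPM in mutant dorsal stalk. In ventral stalk it was at 2.45, 15.6, 2.57 and 6.46 CPM in controls and at 7.19, 1.97, 18.2, 45.7 and 8.08 CPM in mutants. The means were thus higher in the mutant in both parts of the stalk, with overlap in each. In axons the order was turned, with 0, 25.5, 30.4 and 13.1 CPM in controls and 1.37, 0, 0, 15.8 and 0 CPM in mutants. The log2 fold changes were 3.15 ± 3.19, 1.77 ± 1.74 and -0.22 ± 5.12, none of them called. The dorsal value was -0.51 within batch A and 6.18 within batch B.

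Comparisons between regions of one genotype ask how the stalk is patterned. In controls no member was called between dorsal and ventral stalk (0% of all genes were), between dorsal stalk and axons (0.0692%) or between ventral stalk and axons (0.0316%). At an unadjusted p under 0.05, 1 member (Rnf43, through control dorsal stalk 3) stood between dorsal stalk and axons, against 10.5% of all genes. None stood between dorsal and ventral stalk (6.74%) or between ventral stalk and axons (9.19%). Znrf3 was the 1 member whose control dorsal values all lay above the control axon values, against 4.41% of genes without overlap, and its log2 fold change was 1.11 ± 1.30 (adjusted p = 0.939 by edgeR). Within each of the 4 control embryos, Znrf3, Tcf7l1, Lef1 and Axin2 were higher in dorsal stalk than in axons. For Axin2 the dorsal level was as low as 0.0590 CPM, within the floor. The share of all genes with this order in every control embryo was not counted. The members' median log2 fold change of dorsal stalk over axons was 0.51 in controls, beside 0.29 for all genes.

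In mutants no member was called between dorsal and ventral stalk (0% of genes), dorsal stalk and axons (0.545%) or ventral stalk and axons (0.443%). Unadjusted, 1 member (Rnf43) stood between dorsal and ventral stalk, against 12.4% of genes, 1 (Tcf7l2) between dorsal stalk and axons, against 23.5%, and 2 (Tcf7l2 and Rnf43) between ventral stalk and axons, against 21.8%. The members' shares were thus below or near the background.

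Tcf7l2 was the member with the clearest regional difference. Its mutant axon values, 19.9 to 79.0 CPM, lay below all mutant dorsal values (151 to 210 CPM) and all mutant ventral values (110 to 198 CPM). Groups did not overlap for 4.18% and 3.43% of genes in these comparisons. Within each of the 5 mutant embryos Tcf7l2 was lower in axons than in either part of the stalk. How many of all genes had this order in every mutant embryo was not counted. The log2 fold change of dorsal stalk over axons was 1.71 ± 0.52 (adjusted p = 0.182 by edgeR). That of ventral stalk over axons was 1.43 ± 0.58 (adjusted p = 0.214 by edgeR). The medians over all genes were 0.33 and 0.37 in these fits. With the embryo as a block, which pairs the pieces of 1 animal, the values were 1.86 and 1.58 with adjusted p of 0.540 and 0.573 by edgeR. The all-gene medians were then 1.42 and 1.46, so much of the shift under the block was shared by the median gene. DESeq2 called both regional differences (adjusted p = 0.00298 and 0.0294), beside all-gene medians of 0.43 and 0.38. The dorsal one was also called by limma voom (adjusted p = 0.0356), at 1.96 beside an all-gene median of 1.47.

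In controls the same gene was lower in axons than in dorsal stalk in 3 of 4 embryos, and than in ventral stalk also in 3 of 4. The control log2 fold changes were 0.55 ± 0.53 for dorsal stalk over axons and 0.35 ± 0.49 for ventral stalk over axons. Whether the mutant effect on Tcf7l2 differed between regions was tested, and it did not pass, with a difference of 1.20 ± 0.61 for dorsal stalk against axons (adjusted p = 0.456 by edgeR). For ventral stalk against axons it was 1.10 ± 0.61 (adjusted p = 0.608 by edgeR).

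**Figure D4:**
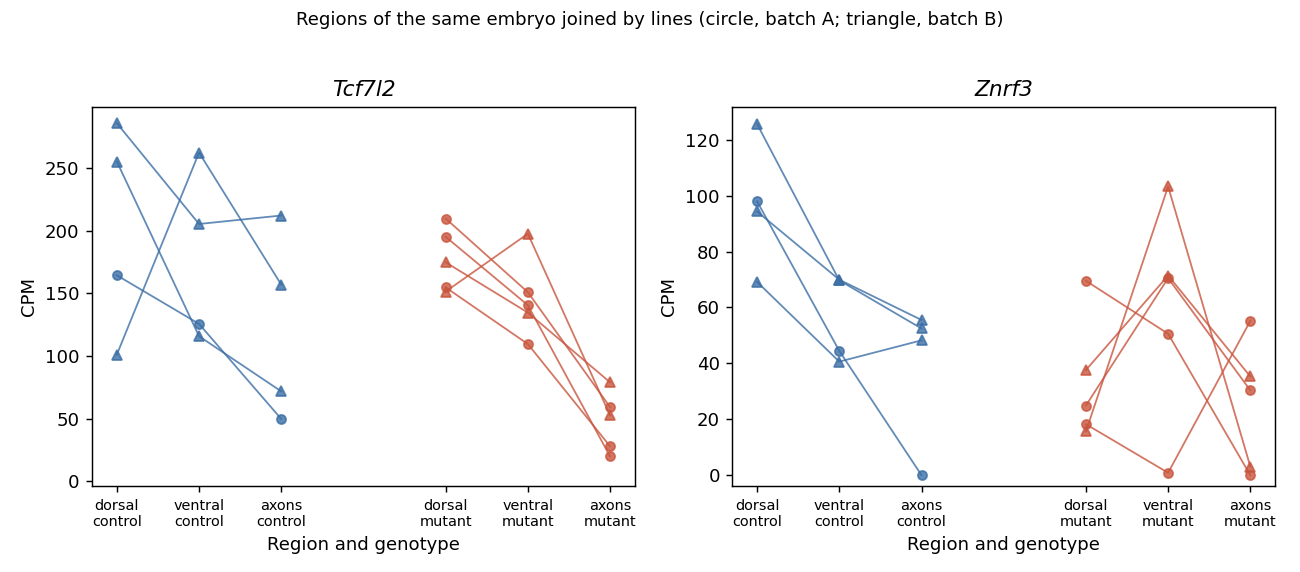
CPM of Tcf7l2 and Znrf3 (vertical axes) in the dorsal stalk, ventral stalk and axon region, with lines joining the pieces of 1 embryo, controls in blue and mutants in red, circles for batch A and triangles for batch B. Every mutant line of Tcf7l2 is lowest at the axons, and every control line of Znrf3 is higher in dorsal stalk than in axons.

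The captured pieces of the mutant also differed in other respects beside these Tcf7l2 values. The 8 tested RPE and pigment markers all had higher values in mutant dorsal stalk than in axons, with sums of 3143 to 12280 against 170 to 1283 CPM, and 2 of them were called. The 12 mesenchyme markers were all lower in dorsal stalk, at 56.5 to 374 against 629 to 2282 CPM. Of the 8 markers of optic stalk and astrocyte progenitors 2 were called lower there, with sums of 285 to 622 against 1379 to 2279 CPM. In ventral stalk, the mesenchyme markers summed to 58.8 to 201 CPM, and markers such as Foxc1 and Twist1 were at 0 in all 5 mutant libraries. The neuronal markers summed to 40.8 to 325 CPM in mutant dorsal stalk and 2.35 to 529 CPM in mutant axons, which overlapped. Of the 7 tested, 3 were higher in dorsal stalk and 4 lower. Elavl3 was at 0 in axons, whereas Nefl held 3420 counts in axons and 364 in dorsal stalk. Gap43 (11365 against 2187 counts), Stmn2 (7278 against 3037) and Snap25 (1238 against 539) also held more in axons. Tubb3 held 4896 counts in dorsal stalk and 3 in axons, and Isl1 held 918 and 7. At the unadjusted p threshold used above, 2 of the markers higher in dorsal stalk stood and 0 of the lower ones, with 0 called. Pou4f2 was at 0 in both groups. The part of these markers and of the lower number of genes detected in axons was not tested.

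**Figure D5:**
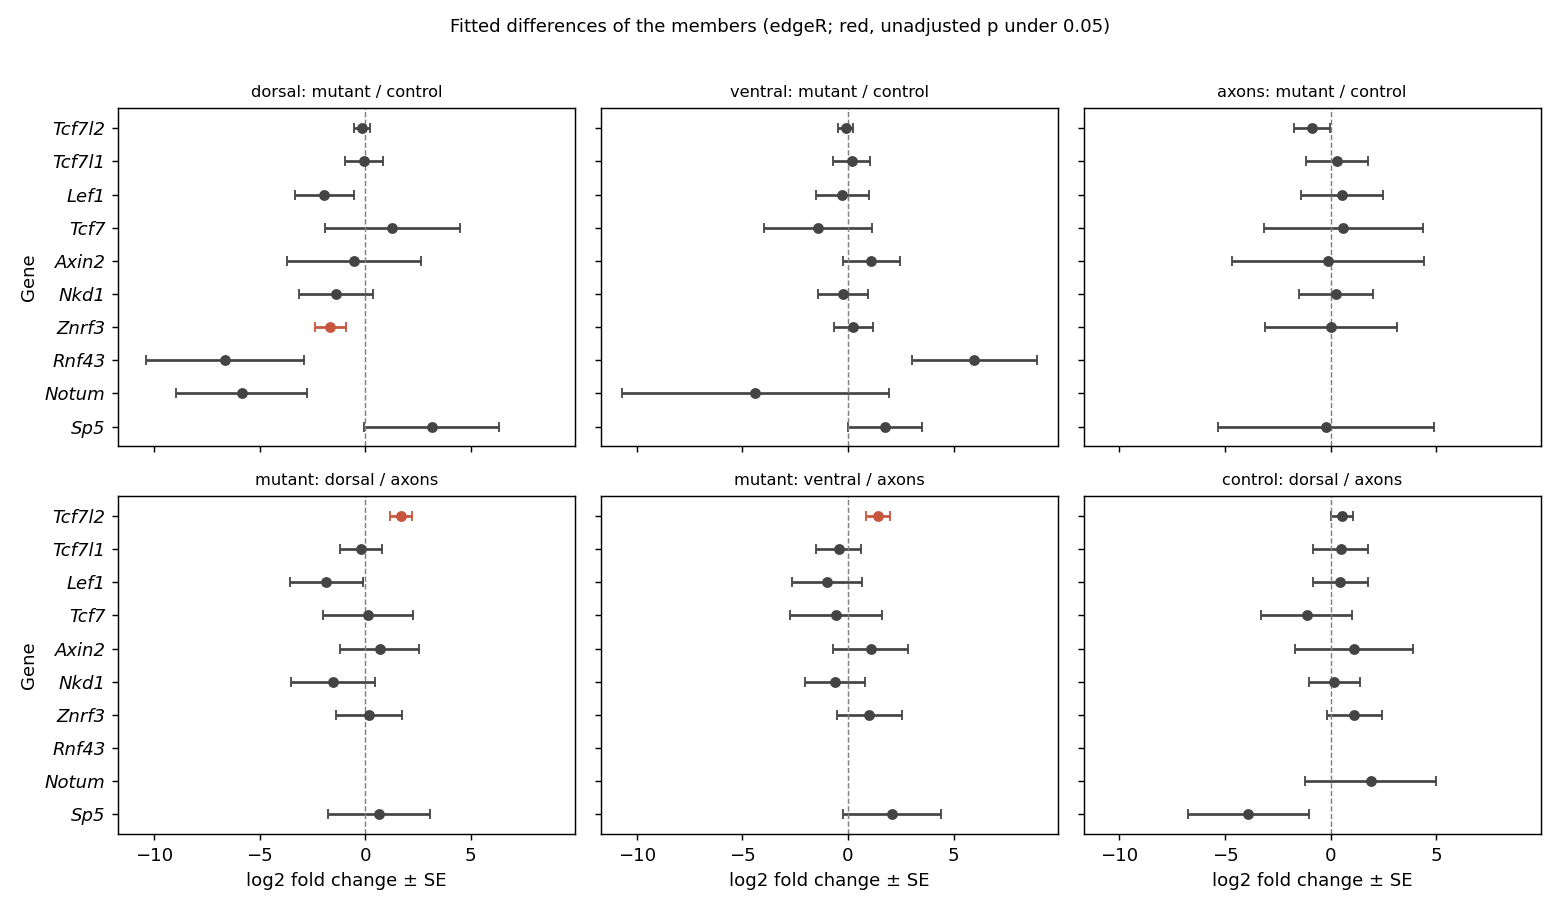
Fitted log2 fold changes with their SE (horizontal axis) of the 10 members in 6 comparisons from edgeR; red marks an unadjusted p under 0.05, and genes with a group at the count floor are left out. Znrf3 in dorsal stalk (-1.65) and Tcf7l2 in mutant stalk over axons (1.71 and 1.43) are the red values, and the SE of Axin2, Tcf7, Notum and Rnf43 span several units.

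The difference of the mutant effect between regions was called for no member. All-gene shares were 0.00612% for dorsal against ventral stalk, 0.0245% for dorsal stalk against axons and 0.00612% for ventral stalk against axons. Unadjusted, Rnf43 was under 0.05 in the first 2 of these, where 7.39% and 11.7% of genes were, through the libraries named above. None of the members was in the third, where 10.4% of genes were.

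The genes whose levels followed Tcf7l2 most closely over the 27 libraries were Clk4 (r = 0.822), Rps6kb2 (0.814) and Itfg1 (0.812), by Pearson's r of log2(CPM + 1) among 10415 genes. Those nearest to Znrf3 were Slc35f1 (0.902), Dyrk2 (0.850) and Cab39l (0.845). The libraries share embryos, regions and depth, so these values are a description.

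The rest of the pathway was read from 7 lists with 76 genes. In dorsal stalk 56 of them were tested between genotypes, and 1 was called higher and 0 lower. In ventral stalk and axons 0 of 57 and 0 of 55 were called. At an unadjusted p under 0.05, 12.5% of them stood in dorsal stalk, 5.26% in ventral stalk and 7.27% in axons, beside 5.35%, 3.19% and 3.55% of all genes. The called gene was Dkk1, a secreted antagonist that binds LRP receptors and is itself a reported target. Dkk1 was at 77.3, 93.7, 128, 106 and 78.5 CPM in mutant dorsal stalk and at 0 in all 12 control libraries. Against the floor of 3 counts per library it was at least 560-fold higher in mutant than in control dorsal stalk (adjusted p = 0.0346 by edgeR). It was also called over mutant axons, all at 0, at least 595-fold (adjusted p = 0.00382 by edgeR, and 0.368 with the embryo as a block). In mutant ventral stalk it was found in embryo 4 alone, at 18.7 CPM. Dkk1 thus passed the count filter only through the libraries of mutant dorsal stalk, the group where it was high. The genotype call held in 7 of 19 alternative fits, among them DESeq2, limma voom and the fit without a batch term. Among them was also 1 of 9 fits that left out an embryo (control embryo 3), with adjusted p from 0.0393 to 0.387 by edgeR. The call was lost without control embryo 1, 2 or 4 or any mutant embryo. It was also not called within either batch alone, where the adjusted p was 0.366 in batch A and 0.668 in batch B.

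Of the 2 genes of ligand secretion, Wls, which carries Wnt ligands to the cell surface, was called between mutant dorsal stalk and axons. It was at 667, 225, 495, 890 and 524 CPM in dorsal stalk and at 10.01, 37.4, 57.1, 6.71 and 16.6 CPM in axons, with a log2 fold change of 4.24 ± 0.60 (adjusted p = 0.00181 by edgeR). The groups were far apart, and the control means had the same order, at 449 ± 275 and 31.5 ± 30.5 CPM (n = 4). With the embryo as a block the adjusted p was 0.0816 by edgeR, and by limma voom it was 0.181. Porcn, which adds the lipid to the ligand, was at 0 to 27.5 CPM in dorsal stalk of either genotype.

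Of 20 transducers, Ctnnb1, which encodes beta-catenin, was called lower in mutant ventral stalk than in axons. It was at 295, 266, 433, 270 and 336 CPM in ventral stalk and at 811, 534, 720.4, 565 and 661 CPM in axons, with a log2 fold change of -1.22 ± 0.21 (adjusted p = 0.0141 by edgeR). No mutant ventral value reached the axon values. The call held in 7 of 12 alternative fits. It was lost without mutant embryo 1, 2, 4 or 5, with adjusted p up to 0.184 by edgeR. It was also lost with all 27 libraries in one model. Dvl3 and Tle4, which act at the receptor and as a corepressor, had the smallest p of this list between genotypes in dorsal stalk, with log2 fold changes of -1.34 ± 0.71 and -0.87 ± 0.69 and adjusted p of 0.924 and 1 by edgeR.

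In the other lists no further gene was called in any of the 12 comparisons. Among the antagonists, Wif1, which binds Wnt ligands, was at 350 to 543 CPM in control and 107 to 426 CPM in mutant dorsal stalk, with a log2 fold change of -1.04 ± 0.32 (adjusted p = 0.918 by edgeR). Among the receptors, Fzd8 was at 47.6 to 184 and 4.496 to 61.1 CPM (log2 fold change -2.02 ± 0.82, adjusted p = 0.918 by edgeR), and Fzd9 was at 0 in control dorsal stalk and at 0 to 11.1 CPM in mutants. Lgr5, a receptor for R-spondins, was at no more than 1 count in control dorsal stalk and at 16.8, 29.4, 0, 6.48 and 12.6 CPM in mutants, and Rspo3, a ligand of that receptor family, was at 51.9 to 106 and 0 to 75.1 CPM. Of other reported targets, Nkd2 was at 0 to 39.7 CPM in controls and no more than 0.0665 CPM in mutants, and Tnfrsf19 was at 3.72 to 64.0 and 11.7 to 191 CPM. Of the 19 ligands, 7 were tested in dorsal stalk, and those with the smallest p, Wnt8b and Wnt5b, had log2 fold changes of 2.34 ± 3.36 and -1.36 ± 2.17 (adjusted p = 1 by edgeR for each).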

How the data were processed

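The deposited table holds counts of reads per gene. To make them, the authors ran the Seq2Science workflow with default settings on single-end reads of 150 bases, aligned them to mm10 with STAR and counted them with HTSeq (Salmon was named for TPM values, not used here). Versions, annotation release and strand setting are not given in the sources used here. Low-input cDNA was amplified without molecular identifiers. Of 55487 identifiers, 55227 matched GENCODE M21 without version. The other 260 hold 0.00287% of counts. Groups, batches and replicate numbers came from the labels, and 0 library pairs were identical. An earlier stage was not analysed here.

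CPM were counts over library totals. Tests used edgeR 4.0.16 in R 4.3.3 (quasi-likelihood, robust, legacy setting, TMM, filter of over 10 counts in 3 or more libraries). Genotypes were compared within a region with batch as a term, regions within a genotype without covariates, and differences of effects over all libraries with batch. All tests were two-sided. Standard errors were derived from the F statistic and are approximate. DESeq2 1.42.0, limma 3.58.1 and other alternatives are given in the closing section, and the steps were tested on simulated data. The pieces of an embryo share the animal, which the main regional fits and differences of effects do not take into account. The embryo was used as a block for both in alternative fits. Same-embryo deviations correlated at -0.019 to 0.115 over 27 pairs. Equal numbers across genotypes are different embryos (-0.051 to 0.028 over 12 pairs).

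The members, the gene lists and the rules were chosen with earlier results of these data known. Named genes are the 10 members, Smarcc1, the called genes of each pathway list or else its 2 with the smallest p in the dorsal genotype comparison, and the 3 genes most correlated with each of the 2 members of highest mean CPM (genes of at least 5 CPM on average). Marker genes are named where their list moves with a result. Promoter windows came from RefSeq (GRCm38.p6).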

Additional observations from a re-analysis of the deposited data

Results flagged for a closer look

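In 60 sets of a member's values (10 genes in 6 groups), the highest or the lowest library lay far from the others of its group in 15 sets by Dixon's ratio. Chance gives about 1 in 20 sets of normally distributed values, but 4 of the 15 hold a single library above 0, for which the ratio is 1 by construction, so the tally is not read against that share. These are values, and their cause was not tested.

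Rnf43 was at 105 CPM in control dorsal stalk 3 (next library 1.43 CPM) and at 56.0 CPM in mutant ventral stalk 4 (next 0.473 CPM). It was also set apart at 0.266 CPM in mutant dorsal stalk 5 (4 counts) and at 0.0572 CPM in mutant axons 1 (1 count), with the other libraries of both groups at 0, and the latter is within the floor of 3 counts. Notum was at 12.2 CPM in control ventral stalk 4 and at 10.6 CPM in control axons 2, where the other 3 libraries were at 0. Its other values set apart were 0.954 CPM in mutant dorsal stalk 2, 1.60 CPM in mutant ventral stalk 2 and 0.0680 CPM in mutant axons 3 (1 count, also within the floor).

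Axin2 was at 19.8 CPM in control axons 2 and at 43.4 CPM in mutant axons 2, against next values of 0.229 and 2.62 CPM. Sp5 was at 4.87 CPM in control dorsal stalk 1 and at 15.8 CPM in mutant axons 4. Tcf7 was at 54.7 CPM in mutant ventral stalk 4, with a next value of 8.14 CPM. The 1 low value was Znrf3 at 0 CPM in control axons 1, where the other 3 libraries were at 48.2 CPM or more. No test of the difference between regional effects called a member.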

How the results depend on the processing

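The number of members called was 0 in all 12 comparisons and stayed 0 in 170 of 174 recomputed counts. In the other 4 it was 1, always Tcf7l2: for mutant dorsal stalk against axons with DESeq2, with limma voom and with all 27 libraries in one model, and for mutant ventral stalk against axons with DESeq2. Leaving out each embryo in turn gave 0 members called throughout (lowest 0, highest 0). With the embryo as a replicate block for regions, and with the shared number as a block for genotypes, 0 members were called. The block took the call from Dkk1 (adjusted p = 0.368) and Wls (adjusted p = 0.0816) between mutant dorsal stalk and axons, and left that of Ctnnb1. Numbers shared by a control and a mutant name different embryos and pair nothing. Calls over all genes moved by more than 1.5 times: in dorsal stalk between genotypes from 2 to 532 with DESeq2, in ventral stalk from 0 to 342 and in axons from 0 to 1233, and between mutant dorsal stalk and axons from 86 to 1571, with 42 under the embryo block. Of 586 recomputed log2 fold changes of members, 85 changed sign, none of them called, and 0 calls were reversed. Mean levels on TMM library sizes moved by over 1 SD in 0 of 60 cases. A pseudocount of 0.25 in place of 1 kept 3 of 10 members with a higher mean log level in the mutant in each region. Depth limited Rnf43 and Notum, at 3 counts or fewer in 19 and 18 of 27 libraries.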
